A study of Ovis aries with 42 samples.

Results

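The 37 genes of the sheep mitochondrial genome were followed in hypothalamus and pars tuberalis. They were chosen by ID, as the genes ENSOARG00000000001 to ENSOARG00000000037 in genome order, and they make up 37 of the 27054 gene IDs in the count table. Of these, 13 code for proteins of the respiratory chain, 2 for ribosomal RNAs (12S and 16S) and 22 for transfer RNAs. All 37 had counts in every library and all 37 passed the filter on low counts in every comparison.

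RNA was sequenced from the hypothalamus (HT), the brain region that governs reproductive hormone release, and from the pars tuberalis (PT), the pituitary tissue around its stalk that reads the melatonin signal of day length. All samples came from adult female Rasa Aragonesa sheep, and no other treatment or genotype is labelled. There were 6 groups of 7 libraries: luteal (a corpus luteum is active), follicular (before ovulation) and anestrous (the season without cycles), each in HT and in PT. Nothing in the labels ties a library to an individual ewe. The p-values therefore describe only the spread among these libraries, which may be technical.

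The mitochondrial genome is a small circle that is copied into RNA from both strands as long transcripts. These are cut at the transfer RNAs, which sit between most of the other genes, and the pieces then persist for different times. Its messenger RNAs encode core subunits of complexes I, III, IV and V of oxidative phosphorylation, while all other subunits and every factor that reads this genome are made from nuclear genes. Neurons rely heavily on oxidative phosphorylation, and mitochondrial transcripts are abundant in brain RNA.

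Library totals ran from 14649356 to 37726207 counts. Levels are given as CPM, counts scaled to a common library size after TMM, an adjustment that takes most features as unchanged. The TMM factors ran from 0.663 in HT luteal library 3 to 1.45 in HT anestrous library 15, which were also the libraries of highest and lowest mitochondrial share. The 3 largest features outside the mitochondrial genome took from 1.96% to 21.6% of a library. The deposited table pairs no ID with a name, so neither tissue could be checked against its cell markers and no nuclear gene of oxidative phosphorylation is reported.

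The mitochondrial genes took 25.3% ± 7.71 of all counts (SD, n = 42). They held 8 of the 10 features of highest mean count, and a mitochondrial gene was the largest feature in 35 of 42 libraries, COX1 in 18 and CYTB in 17. The share was 28.8% ± 8.35 in HT and 21.8% ± 5.15 in PT (SD, n = 21 each). In luteal HT the lowest, median and highest share were 17.3%, 24.9% and 44.0%, in follicular HT 21.2%, 25.5% and 29.4%, and in anestrous HT 13.6%, 35.3% and 41.7%. In PT they were 15.2%, 23.7% and 34.6% in the luteal phase, 14.5%, 20.4% and 22.5% in the follicular phase, and 17.7%, 20.9% and 29.5% in anestrus. The groups overlapped throughout. Follicular libraries were the least spread in both tissues, with an SD of 3.28 percentage points in HT and 2.73 in PT. The lowest value of all, 13.6%, was that of library 15, in the group with the highest median. In whole tissue, fewer cells of a type and less RNA per cell cannot be told apart.

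**Figure D1:**
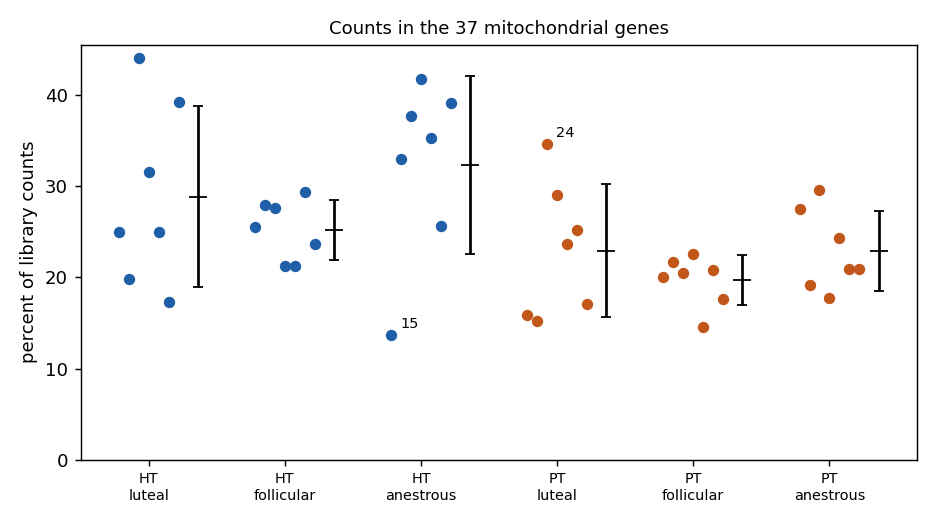
Share of each library's counts in the 37 mitochondrial genes (vertical axis, percent), with 1 point per library, by tissue and phase, and bars for the mean ± SD of 7 libraries. Anestrous HT holds both library 15 at 13.6% and a library at 41.7%, and follicular libraries are the most closely spaced.

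The messenger RNAs supplied nearly all of it. The 13 protein-coding genes took 27.2% ± 7.93 of counts in HT and 21.2% ± 5.01 in PT, the 2 ribosomal RNA genes 1.37% ± 0.408 and 0.531% ± 0.161, and the 22 transfer RNA genes 0.222% ± 0.0666 and 0.115% ± 0.0296 (SD, n = 21 each). The sources used here do not give how RNA was selected for the libraries, so the low ribosomal RNA share describes these libraries and not the tissue. Nor does the table tell whether the counts of a transfer RNA gene came from mature transfer RNA or from longer RNA that spans it.

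Per length of gene, CYTB (the mitochondrial subunit of complex III) and ATP6 (a proton channel subunit of ATP synthase, complex V) were highest. Gene lengths were those of the RefSeq sheep table (ARS-UI_Ramb_v3.0), since the build behind the counts is not given. In HT, CYTB stood at 46900 ± 21917 CPM per kilobase and ATP6 at 42120 ± 18809, followed by COX3 at 36186 ± 16870 and COX1 at 35118 ± 15936 (SD, n = 21 each). CYTB was above ATP6 in 13 of 21 HT libraries and COX3 above COX1 in 14, so these neighbours in the order were not separated. COX1 was above ND6, the next in the order, in all 21 HT libraries. ND4L (11926 ± 5861), ND3 (12683 ± 6235) and ATP8 (14458 ± 10495) were the lowest per length in HT.

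The order in PT was much the same. CYTB led at 34772 ± 14607 CPM per kilobase, above ATP6 (26939 ± 11685) in 20 of 21 libraries. ND3 had the lowest mean at 7551 ± 3080 (SD, n = 21 each). ATP8 had a higher mean (9141) but a lower median than ND3 (5919 against 6998), and was above it in 8 of 21 PT libraries. ATP6, COX1 and COX3 were not separated from each other there (ATP6 above COX1 in 13 libraries, COX1 above COX3 in 12). ND2 ranked above ND5 in 17 of 21 HT libraries, and ND5 above ND2 in 20 of 21 PT libraries. Both encode membrane subunits of complex I that take part in proton pumping.

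The first comparison asks how the tissues differ. Averaged over the phases, every mitochondrial gene had a fitted level lower in PT (36 of 37 with library totals in place of TMM), and 32 of 37 passed the test (edgeR's quasi-likelihood test over 17296 features, Benjamini-Hochberg adjusted p under 0.05), with 0 higher. Across all features tested, 39.4% were called lower in PT, 35.6% higher and 75% in either direction. With library totals these calls turned from 6807 lower and 6158 higher to 5471 lower and 6910 higher. Called lower were 11 of 13 messenger RNAs, both ribosomal RNAs and 19 of 22 transfer RNAs. The median log2 fold change was -0.54 for the messenger RNAs, -1.56 for the ribosomal RNAs and -1.74 for the transfer RNAs, against -0.05 for all features. No gene of the 37 had 21 PT libraries wholly below 21 HT libraries in CPM, where 10.1% of all features separated the tissues in this way.

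Among the complex I genes, 6 of 7 fell. ND2 lay between 6088 and 43136 CPM in HT (median 17169) and between 4526 and 28597 in PT (median 10125). It was 1.87-fold lower in PT (-0.90 ± 0.192 SE in log2, edgeR adjusted p = 6.30e-05), and the tissues still overlapped. ND1 (log2 fold change -0.73, adjusted p = 0.000731) and ND3 (-0.73, adjusted p = 0.000868) followed, and ND6 (-0.56), ND5 (-0.54) and ND4 (-0.44) fell less. ND4L had a log2 fold change of -0.33 (95% interval -0.70 to 0.03) and was not called (edgeR adjusted p = 0.0922). ND4L overlaps ND4, ATP8 overlaps ATP6, and ND5 and ND6 adjoin on opposite strands in mammalian mitochondrial genomes. The sources used here do not give how strand and overlaps were handled, which leaves the split of counts within these pairs uncertain.

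The genes of complexes III and IV changed less than ND2. CYTB ran from 15342 to 113164 CPM in HT (median 43262) and from 20971 to 90530 in PT (median 35357), a difference of -0.42 ± 0.182 SE in log2 (edgeR adjusted p = 0.0363). COX1, the catalytic subunit of cytochrome c oxidase, ran from 15735 to 108995 CPM in HT (median 47117) and from 22451 to 86414 in PT (median 35572), a difference of -0.47 ± 0.177 SE in log2 (edgeR adjusted p = 0.0169). COX2, the subunit that takes electrons from cytochrome c, and COX3, a structural subunit, had log2 fold changes of -0.51 and -0.52 (adjusted p = 0.0112 and 0.0107). For all 4 genes the lowest library of all was not from PT but HT library 15. The call of CYTB was lost with library totals in place of TMM (adjusted p = 0.0597) and without a filter on low counts (adjusted p = 0.0523).

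Of the ATP synthase genes, ATP6 fell by 0.63 on the log2 scale (SE 0.181, edgeR adjusted p = 0.00192). ATP8, a small membrane subunit, had a similar log2 fold change of -0.65 with a wider interval, -1.29 to -0.02, and was not called (edgeR adjusted p = 0.0569). ATP8 and ND4L were both called once library 15 was left out (adjusted p = 0.0473 and 0.0328).

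**Figure D2:**
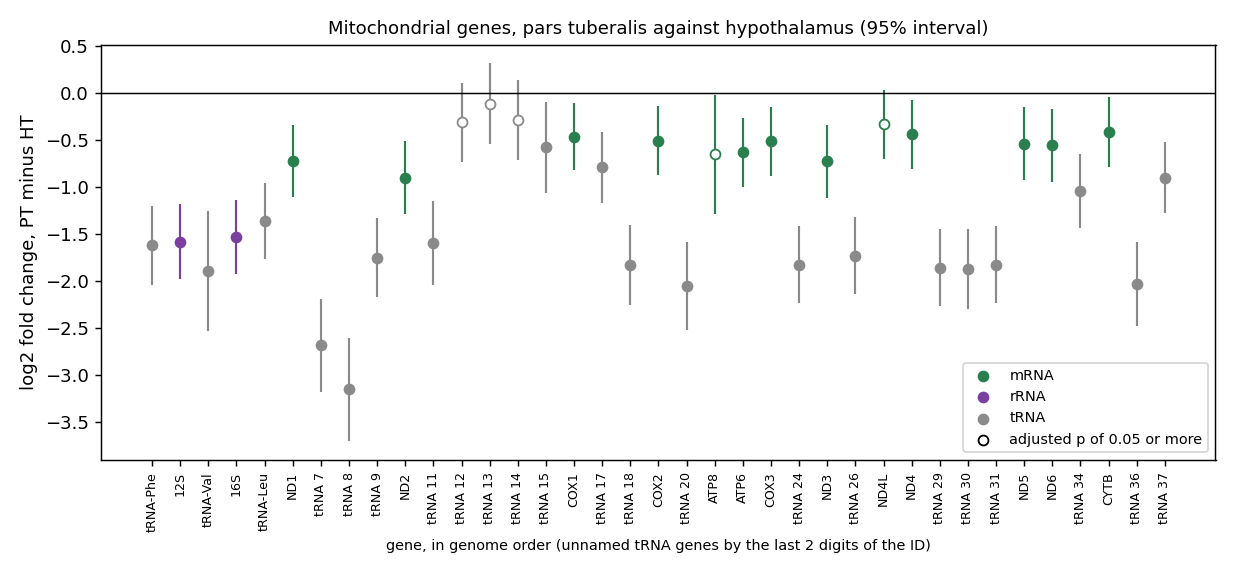
Log2 fold change of each mitochondrial gene, PT minus HT averaged over the 3 phases, with its 95% interval, in genome order. Every point lies below 0 (36 of 37 with library totals in place of TMM), the 2 ribosomal RNAs and most transfer RNAs lie further down than the messenger RNAs, and the 5 open points did not pass the test.

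The ribosomal RNAs of the mitochondrial ribosome fell about 3-fold. 12S, of the small subunit, ran from 1004 to 8687 CPM in HT (median 3403) and from 509 to 3188 in PT (median 1165), 2.997-fold lower in PT (log2 fold change -1.58 ± 0.195 SE, edgeR adjusted p = 2.52e-09). 16S, of the large subunit, ran from 2746 to 24010 CPM in HT (median 10417) and from 1580 to 10446 in PT (median 3565), 2.90-fold lower (log2 fold change -1.54 ± 0.192 SE, adjusted p = 3.38e-09). Library 15 was the lowest of HT and luteal library 24 the highest of PT. The tissues overlapped without these as well, since HT luteal library 6 had 1683 CPM of 12S and 4921 of 16S, and PT anestrous library 36 had 1848 and 5485. The ratio of 16S to 12S counts was 2.96 ± 0.286 in HT and 3.08 ± 0.334 in PT (SD, n = 21 each), a difference smaller than either SD.

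The transfer RNA genes, which also mark the sites where the long transcripts are cut, differed most among themselves. The 6 of highest mean level, named by that rule, were ENSOARG00000000037, ENSOARG00000000034, tRNA-Leu (the gene after 16S), ENSOARG00000000013, ENSOARG00000000026 and ENSOARG00000000036. ENSOARG00000000037, the last gene of the map, ran from 279 to 2021 CPM in HT (median 884) and from 268 to 1107 in PT (median 391), a log2 fold change of -0.90 (edgeR adjusted p = 4.74e-05). ENSOARG00000000034, between ND6 and CYTB, had a log2 fold change of -1.04 and tRNA-Leu one of -1.37 (adjusted p = 9.41e-06 and 1.15e-07). ENSOARG00000000026 and ENSOARG00000000036 fell by 1.73 and 2.04 on the log2 scale.

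ENSOARG00000000013 stood apart from these. It ran from 17.6 to 162 CPM in HT (median 59.1) and from 15.03 to 135 in PT (median 58.5), with a log2 fold change of -0.11 (95% interval -0.54 to 0.31, edgeR adjusted p = 0.628). It is 1 of 5 transfer RNA genes between ND2 and COX1, and its neighbours ENSOARG00000000012 and ENSOARG00000000014 were not called either (log2 fold change -0.32 and -0.29, adjusted p = 0.166 and 0.216). The next in the row, ENSOARG00000000015, fell by 0.58 on the log2 scale (adjusted p = 0.028), and the first, ENSOARG00000000011, fell by 1.60. In mammals most transfer RNA genes of that stretch are encoded on the same strand as ND6.

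At the other end were the neighbouring genes ENSOARG00000000007 and ENSOARG00000000008, between ND1 and ND2. These genes, and those between ND2 and COX1 other than ENSOARG00000000013, were chosen after their values were seen. ENSOARG00000000008 ran from 2.52 to 28.8 CPM in HT (median 14.5) and from 0.492 to 4.85 in PT (median 1.47), 8.93-fold lower in PT (log2 fold change -3.16 ± 0.269 SE, edgeR adjusted p = 1.88e-13). ENSOARG00000000007 was 6.44-fold lower (log2 fold change -2.69 ± 0.243 SE, adjusted p = 1.02e-12). They also rank among the lowest counts, since ENSOARG00000000008 had from 11 to 536 counts in a library.

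Within a single phase fewer genes passed, with 7 libraries against 7. In the luteal phase 19 of 37 were called lower in PT (29% of all features were), namely 0 messenger RNAs, 2 ribosomal RNAs and 17 transfer RNAs. In the follicular phase 20 were called lower (31.2% of all features), with ND2 the 1 messenger RNA among them (edgeR adjusted p = 0.0346). In anestrus 26 were called lower (30.4% of all features), 6 of them messenger RNAs: ND1, ND2, ND3, COX1, COX3 and ATP6. None was called higher in any phase. In anestrus COX1 and COX3 were near the threshold (edgeR adjusted p = 0.0422 and 0.0477). Both lost their calls with either other filter on low counts, and COX3 also with RLE factors, library totals or scaling without the 37 genes. Messenger or ribosomal RNA calls were gained with DESeq2 (3), limma-voom (7), scaling without the 20 largest features (1) and without library 15 (6). The median log2 fold change of the messenger RNAs was -0.45 in the luteal phase, -0.46 in the follicular phase and -0.73 in anestrus. These comparisons use the same libraries as the average over phases. Leaving out library 15, the lowest of anestrous HT, raised the count in anestrus to 33. Among all features, calls lower in PT went from 5259 to 5003 with that library left out.

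Because a share can fall for all genes of the genome together, each gene was also set against the summed counts of the 13 messenger RNAs of its own library. This comparison was added after the data were seen. On this scale 22 of 37 genes were called lower in PT and 3 higher (19.4% and 42.3% of all features, edgeR). The ribosomal RNAs and 17 of 22 transfer RNAs were among those lower. The 13 messenger RNAs form this scale, so their own changes centre near 0 by construction (median log2 fold change 0.005). Against that centre ND2 (log2 fold change -0.36, adjusted p = 5.97e-05), ND1 (-0.20, adjusted p = 0.015) and ND3 (-0.18, adjusted p = 0.048) were lower. ND4L was higher (0.20, adjusted p = 0.0178), and the other 9 lay between -0.20 and 0.11 and were not called.

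On the same scale both ribosomal RNAs separated the tissues. There were 5.07 ± 0.890 ribosomal RNA counts per 100 messenger RNA counts in HT, from 3.81 to 7.74, and 2.52 ± 0.533 in PT, from 1.504 to 3.45 (SD, n = 21 each). Every HT library was above every PT library, library 15 included. 12S was 2.07-fold and 16S 1.996-fold lower in PT relative to the messenger RNAs (log2 fold change -1.05 ± 0.101 and -0.997 ± 0.108 SE, adjusted p = 3.96e-12 and 8.18e-11). Transfer RNA counts per 100 messenger RNA counts were 0.814 ± 0.081 in HT, from 0.651 to 0.990, and 0.542 ± 0.0553 in PT, from 0.435 to 0.639, again without overlap.

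Gene by gene, 12 of the 37 had all PT libraries below all HT libraries on this scale, namely both ribosomal RNAs and 10 transfer RNAs, where 1.41% of all features did so. Transfer RNAs called higher in PT were ENSOARG00000000013 (log2 fold change 0.46, adjusted p = 0.0011) and ENSOARG00000000014 (0.28, adjusted p = 0.0461). ENSOARG00000000008 remained the most different gene, 5.96-fold lower (log2 fold change -2.58). Within the luteal, follicular and anestrous phases alone, 18, 19 and 19 genes were called lower (9.12%, 10.2% and 12.2% of all features), the 2 ribosomal RNAs and 16 transfer RNAs each time, and 0, 0 and 1 were called higher (24.2%, 28% and 25.3%). How RNA quality and library preparation differed between the tissues is not given beyond an integrity threshold, and their part in these ratios was not tested.

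**Figure D3:**
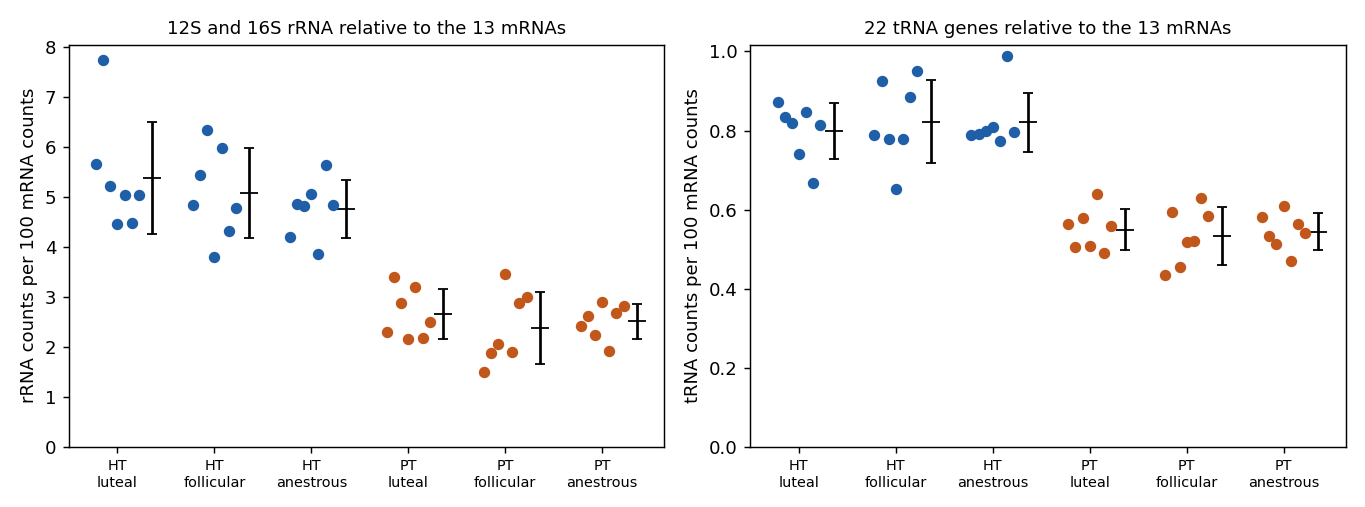
Counts of the 2 ribosomal RNA genes (left) and of the 22 transfer RNA genes (right) per 100 counts of the 13 messenger RNAs, with 1 point per library and bars for the mean ± SD of 7 libraries. HT libraries lie above all PT libraries in both panels, and the 3 phases of a tissue lie at similar heights.

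The next comparisons ask how the genes differ between phases within a tissue. No mitochondrial gene was called in any of the 6 phase comparisons by edgeR, where 0% of all features were called (16350 tested in HT, 16301 in PT), and DESeq2 called none of them either. The phases overlapped for all 37 genes in each comparison, where between 0.0116% and 0.162% of all features did not (0.0231%, 0.162% and 0.0116% in HT for luteal minus anestrous, follicular minus anestrous and luteal minus follicular, and 0.0231%, 0.11% and 0.0983% for these in PT). Relative to the messenger RNAs the phases overlapped as well: ribosomal RNA counts per 100 were 5.38 ± 1.12, 5.08 ± 0.904 and 4.75 ± 0.580 in luteal, follicular and anestrous HT and 2.66 ± 0.508, 2.38 ± 0.723 and 2.51 ± 0.348 in PT (SD, n = 7 each).

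The most different pair of phases was follicular and anestrous HT. All 37 genes had a lower fitted level in follicular HT, with a median log2 fold change of -0.67, and 7 reached an unadjusted p under 0.05 (10.3% of all features did). COX1 ran from 35551 to 48247 CPM in follicular HT (median 38271) and from 15735 to 90651 in anestrous HT (median 75164). Of the 7 anestrous values, that of library 15 lay under the whole follicular range and that of library 20 (47117 CPM) inside it, so the groups overlapped. Its log2 fold change was -0.73 (95% interval -1.44 to -0.02, edgeR adjusted p = 0.480). CYTB had a log2 fold change of -0.68 (95% interval -1.41 to 0.06) and 16S one of -0.62 (-1.35 to 0.11). Limma-voom with sample weights, which gives less weight to libraries that stand apart, called 21 of the 37 lower in follicular HT. Among all features it called 970 lower and 579 higher, where edgeR called none. Without library 15 edgeR called 0 of the 37, with a median log2 fold change of -0.81, although 890 of all features passed.

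With library totals in place of TMM the median of the 37 in follicular minus anestrous HT was -0.35, and that of all features rose by 0.17. For PT against HT averaged over the phases the same setting raised the median of all features by 0.15, called 30 genes and left ENSOARG00000000013 with a higher fitted level in PT. Within the phases it called 21, 22 and 24 genes, all lower, in the luteal, follicular and anestrous libraries, while the calls among all features turned from 4465 higher and 5021 lower to 4932 and 3467 in the luteal phase, from 4940 and 5405 to 5263 and 3979 in the follicular phase, and from 4382 and 5259 to 5182 and 3774 in anestrus. Sizes on the CPM scale are thus relative to the bulk of nuclear features.

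The other phase pairs had smaller medians by edgeR, and these moved with the setting. Luteal minus anestrous HT gave a median log2 fold change of -0.25 over the 37 (36 fitted lower), which was -0.41 without library 15, between -0.51 (without library 3) and -0.10 (without library 6) with each library left out in turn, and -0.64 with limma-voom. Luteal minus follicular HT gave 0.41 with 37 fitted higher (33 with library totals and 25 with limma-voom). This median was 0.14 with library totals, 0.15 with limma-voom, 0.13 without library 3 and 0.23 without library 7. Both pairs had 0 genes at an unadjusted p under 0.05 (4.44% and 1.14% of all features).

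In PT the luteal minus anestrous median of 0.09 had no stable direction: it was -0.15 with limma-voom (33 of 37 fitted lower, in place of 7), 0.0014 with library totals (18 fitted lower) and -0.22 without library 24. Follicular minus anestrous PT gave -0.36, or -0.22 with library totals, with 37 fitted lower either way. Neither had a gene at an unadjusted p under 0.05 (3.23% and 6.47% of all features). Luteal minus follicular PT gave 0.45, or 0.22 with library totals, 0.15 with limma-voom and 0.17 without library 24. In this pair, 3 genes reached an unadjusted p under 0.05 (8.47% of all features), 16S among them, with 2375 to 10446 CPM in luteal PT (median 4169) against 1580 to 4958 in follicular PT (median 2949). Its log2 fold change was 0.61 (95% interval 0.01 to 1.22, edgeR adjusted p = 0.581), and the highest luteal library other than library 24 had 5224 CPM. Comparisons within a tissue share groups, so their directions are not independent.

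**Figure D4:**
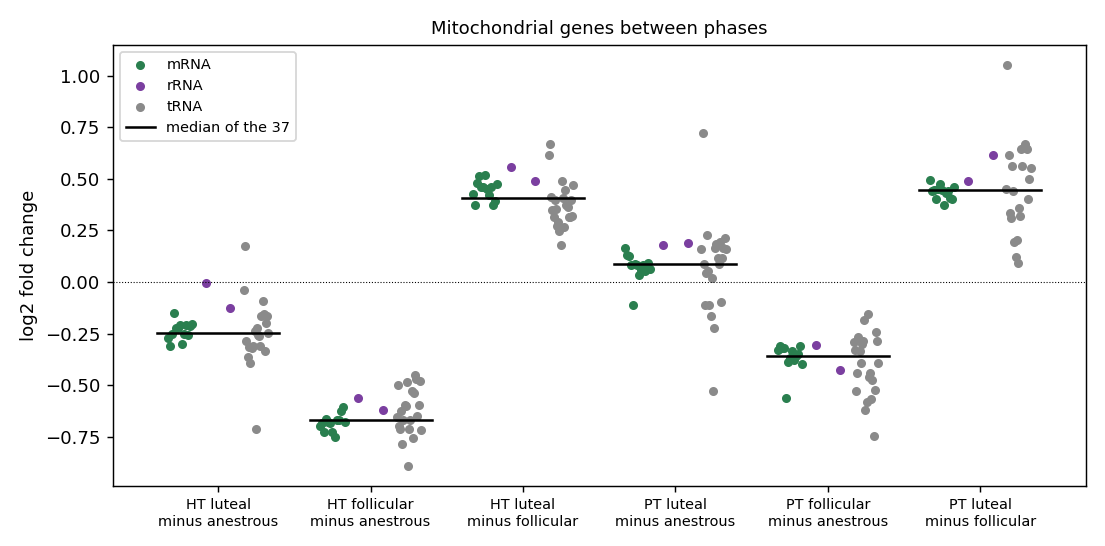
Log2 fold change of the 37 mitochondrial genes in each of the 6 comparisons of phases (1 point per gene, a line at the median). The messenger RNAs of a comparison lie closer together than all 37 genes, which run from -0.53 to 0.72 in luteal minus anestrous PT. The median of the 37 is -0.67 for follicular minus anestrous HT and 0.45 for luteal minus follicular PT, and none passed the test.

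Whether a phase difference itself differed between the tissues was tested in the 42-library fit. No mitochondrial gene was called in the 3 such tests by edgeR, DESeq2 or limma-voom (edgeR called 0% of all features, and 0 of the 37 were at an unadjusted p under 0.05 in each, beside 4.16%, 6.67% and 3.19% of all features). The median of PT minus HT over the 37 was 0.31 for the luteal against the anestrous phase, 0.29 for the follicular against the anestrous phase and 0.02 for the luteal against the follicular phase, in log2. For luteal against anestrous it was 0.16 with library totals, 0.58 without library 3, 0.204 without library 2, 0.19 without library 6 and 0.0022 without library 24. For follicular against anestrous it was 0.12 with library totals, 0.55 with limma-voom, 0.46 without library 15 and 0.18 without library 21. For luteal against follicular it lay from -0.26 (without library 24) to 0.31 (without library 3). The median standard error of these differences over the 37 was 0.48, so differences of that order were not detectable with 7 libraries a group.

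Levels of the genes varied together from library to library. Over the 21 libraries of a tissue, the log2 CPM of the other messenger RNAs had a median correlation with CYTB of 0.99 in HT and 0.98 in PT. The ribosomal RNAs (0.94 and 0.85) and the transfer RNAs (0.94 and 0.84) followed less closely in PT. These are descriptions over 21 libraries, and all genes of a library share its depth and its scaling. ATP8 was the exception among messenger RNAs, at 0.51 in HT and 0.52 in PT.

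ATP8 varied against its overlapping neighbour ATP6. The ratio of ATP8 to ATP6 counts lay between 0.135 and 0.209 in 16 libraries, between 0.0333 and 0.069 in 24, and at 0.103 and 0.0855 in libraries 13 and 34. High values were found in 3, 2 and 3 of 7 luteal, follicular and anestrous libraries, in HT and again in PT. By comparison the ratio of ND4L to ND4, the other overlapping pair, stayed between 0.0969 and 0.128, and that of ND6 to ND5 between 0.389 and 0.493.

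The ATP8 to ATP6 ratio did follow the library numbers. The PT library numbered 21 higher than an HT library is of the same phase, and in 21 of 21 such pairs both values lay in the same range of the ratio. The bounds of the ranges, 0.07 and 0.12, were placed at a gap in these same values. Only libraries 13 and 34, themselves a numbered pair, lay between them. HT libraries 1, 2, 4, 9, 10, 15, 17 and 18 were above 0.12, and so were PT libraries 22, 23, 25, 30, 31, 36, 38 and 39. In 19 of 21 pairs the values were within 1.5-fold, against 51 of the 126 other HT and PT combinations of the same phase. For single genes, log2 counts relative to the summed messenger RNAs were compared after the mean difference between the tissues was taken out. These differences thus do not show how far HT and PT levels lay apart. On this measure ATP6 behaved alike, with a median absolute difference of 0.03 in numbered pairs and 0.22 in other combinations. It was not alone in this. Differences were also smaller in numbered pairs for ND2 (0.05 and 0.14), ND1 (0.06 and 0.11), COX1 (0.03 and 0.07) and CYTB (0.03 and 0.06). The same held for ND3, ND4, ND6 and most transfer RNA genes. For COX2, COX3, ND4L (0.09 and 0.09), ND5 (0.12 and 0.10) and 12S (0.24 and 0.24) they were not smaller. All these values share the summed messenger RNA counts, so a change in ATP8 and ATP6 shifts the others by construction. The genes are thus not independent of each other here. The labels do not say what a shared number means, and whether such libraries come from 1 ewe was not tested. With the numbered pairs as a block, an analysis added after the data were seen, the tissue comparison averaged over phases again called 32 of the 37. Among all features, that fit called 6674 lower and 6363 higher in PT.

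**Figure D5:**
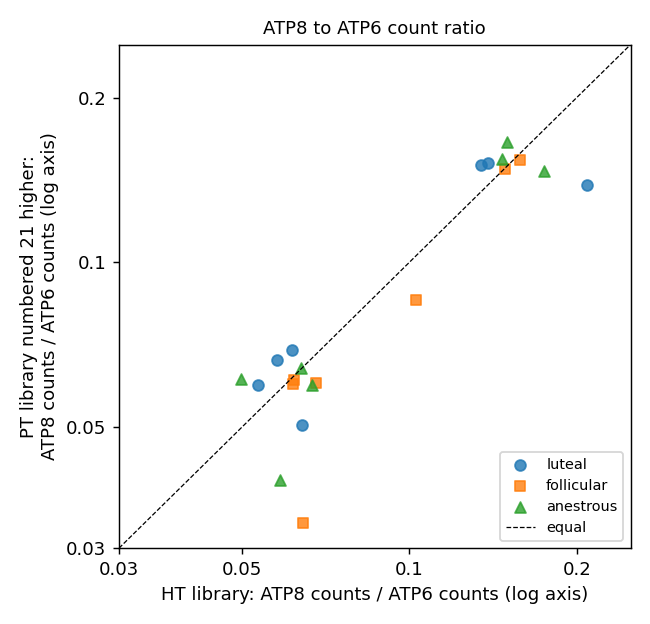
Ratio of ATP8 to ATP6 counts (both axes logarithmic) in each HT library (horizontal) and in the PT library numbered 21 higher (vertical), by phase, with the line of equality. There are 8 pairs above 0.12 on both axes, 12 pairs under 0.07 on both, and 1 between.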

How the data were processed

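Total RNA of frozen tissue with an integrity number above 7 was sequenced on an Illumina Hi-Seq platform, per the labels' protocols. What the authors deposited is a table of whole-number counts, not normalized, for each sheep gene ID in 42 libraries of 6 groups. All columns matched a sample by tissue, phase and library number. Tools named in the submitters' processing notes, without their roles, are R 3.5.1 with DESeq2, StringTie 1.3.5, HISAT2 2.1.0 with SAMtools 1.7, Trimmomatic 0.38 and FastQC 0.11.5. Genome build, annotation, strand handling and RNA selection: not given in the sources used here.

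The 37 genes, their 18 names and the other lists were chosen with earlier results of these data known. The names came with the gene list in genome order. The RefSeq table (ARS-UI_Ramb_v3.0) pairs 0 of the IDs with a name, and its 37 mitochondrial genes match the list in class at 37 places and in symbol for 13 of 13 protein-coding genes. Lists of nuclear genes and cell markers could not be matched and were not tested. Named are the 13 messenger RNAs, the 2 ribosomal RNAs and the 6 transfer RNAs of highest mean CPM. No sequence is shown because none was at hand for these genes.

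On the whole table, edgeR 4.0.16 (R 4.3.3) gave a two-sided robust quasi-likelihood test after TMM scaling and filterByExpr with a minimum count of 10. Benjamini-Hochberg adjustment covered all features tested, and the threshold was 0.05. Tissue comparisons used 1 fit of 42 libraries with 36 residual degrees of freedom, and phases 1 fit per tissue with 18. Intervals are 95%. Log2 CPM use a pseudocount of 0.5. Alternatives were RLE factors, library totals, scaling without the 37 genes or without the 20 largest features, other filters (none, or at least 1 CPM in 7 libraries), only the phases compared in the fit, DESeq2 1.42.0, limma-voom (limma 3.58.1) and leaving out each library. The code was checked on simulated data.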

Additional observations from a re-analysis of the deposited data

Results flagged for a closer look

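Each value here lay apart from the other 6 libraries of its group by a gap that is large for the group's range. Over the 168 group values screened there were 11, and chance gives about 1 in 20.

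Pars tuberalis luteal library 24 was the highest of its group in 6 of these 11. Its level was 22232 CPM for ND1 (the others ran up to 11970), 28597 CPM for ND2 (up to 15775), 10446 CPM for 16S (up to 5224) and 318 CPM for tRNA-Leu (up to 126). It had 82.4 CPM for ENSOARG00000000026 (up to 34.6) and 71.2 CPM for ENSOARG00000000036 (up to 27.5). The mitochondrial share of this library was 34.6%, the highest in PT.

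Hypothalamus libraries gave 4 more. CYTB stood at 48739 CPM in follicular library 13, above 41415 CPM in the next. ENSOARG00000000036 stood at 25.6 CPM in anestrous library 15, where the others ran from 101 to 151. In luteal library 2 there were 7.74 ribosomal RNA counts per 100 messenger RNA counts, against 4.47 to 5.66 in the others. In anestrous library 20 there were 0.990 transfer RNA counts per 100, against 0.774 to 0.808. The last value was tRNA-Leu in pars tuberalis anestrous library 38, at 221 CPM against 79.2 to 132.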

How the results depend on the processing

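Of 166 counts of called genes and group shares under an alternative, 153 stayed the same by a rule on size alone. A count had to equal the main count or lie within 1.5-fold of it. A group share had to move by less than the SD of its group. The rule compares neither direction nor which genes were called. In comparisons of phases most counts were 0 under both settings. With limma-voom the count of the 37 genes called between follicular and anestrous HT was 21, all lower, in place of 0. Limma-voom also called 970 of all features lower and 579 higher there. The cause was not tested. The share of the 37 genes is larger by construction with a smaller denominator. Per 100 counts of the features outside the mitochondrial genome it was 43, 33.9 and 50.03 in luteal, follicular and anestrous HT and 30.8, 24.6 and 29.98 in PT. Per 100 counts without the 20 largest features it was 49.3, 38.4 and 55.9 in HT and 34.1, 26.2 and 33.2 in PT. Leaving out each library in turn gave 29 to 34 genes called between tissues averaged over phases, 16 to 23 in the luteal phase, 18 to 21 in the follicular phase, 22 to 33 in anestrus, and 0 in every comparison of phases. Among 1305 values of single messenger and ribosomal RNA genes under an alternative, 1211 kept their direction and call. A call was gained by 46 and lost by 9. Another 19 moved by more than their error, and 20 changed direction, all in uncalled values of luteal minus anestrous. Transfer RNA genes were outside this count, and some changed direction too, ENSOARG00000000013 among them for PT against HT with library totals. In PT, limma-voom turned 12S to -0.059, ND1 to -0.086, ND2 to -0.0899, COX1 to -0.053, COX2 to -0.0895, COX3 to -0.085, ND3 to -0.199, ND4L to -0.15, ND4 to -0.11, ND5 to -0.19, ND6 to -0.14, CYTB to -0.13 and ATP8 to 0.32. Library totals turned ND3 to -0.056, ND4L to -0.037, ND4 to -0.0014, ND5 to -0.049, ND6 to -0.0055 and CYTB to -0.021 in PT, and 12S to 0.046 in HT. The cause was not tested. The labels give every library its own number and share none between groups, so they define no pairs. A block of numbers 21 apart, chosen after seeing the data, called 32, 18, 21 and 25 genes for PT against HT averaged and in the luteal, follicular and anestrous phases. Among all features, the same fits called 6674, 4909, 5424 and 4904 lower and 6363, 4556, 5033 and 4741 higher. The relative comparison, also chosen after seeing the data, called 25 genes and between 23 and 30 under its alternatives. The messenger and ribosomal RNA genes had at least 9221 counts in every library, while transfer RNA genes had as few as 11, which limits their precision.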
